A study of Mus musculus with 18 samples.

Results

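CD8+ T cells held for 72 h under asparagine (Asn) restriction were compared with cells activated for 24 h in complete medium, to see where late restricted cells stood near early control cells and where they did not. The comparison takes 6 of the 18 RNA-seq libraries of the series, 3 of Asn restriction at 72 h and 3 of control at 24 h, and 3 control libraries at 72 h and 3 at 4 h mark the course in complete medium. All cells were wild type CD8 T cells of C57BL/6N mice aged 8 to 12 weeks, from lymph node and spleen, activated on plate-bound anti-CD3 and anti-CD28. In the study's methods, naive CD8+ cells were isolated by negative selection and cultured with IL-2 and IL-12, and the restricted medium was made without Asn and with dialyzed serum. The sources used here call the 3 libraries of a group replicates and do not say whether each came from its own culture or mouse, so the p-values measure only the spread between these libraries. Time, medium and the difference in sex-linked transcripts described next all separate the groups, and these cannot be told apart in this contrast.

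All 18 libraries are labelled male, and the 6 libraries of the 24 h time point go against that label. Xist, the RNA that coats the inactive X chromosome of female cells, had 6474 to 15549 counts in those 6 libraries, and the 4 Y-linked genes Ddx3y, Eif2s3y, Kdm5d and Uty had a summed count of 0. In the 12 libraries of 4 h and 72 h, Xist had 0 to 5 counts and the same Y-linked genes summed to 1720 to 7954. The comparison of Asn restriction at 72 h with control at 72 h does not carry this difference. That of control at 72 h with control at 24 h does, so time and this difference cannot be told apart there either. Of 440 X-linked genes tested, 61.6% differed between Asn restriction at 72 h and control at 24 h, beside 62.4% of the other genes outside the Y chromosome. Without the genes of both sex chromosomes, none of the 289 other gene values named here lost or gained its call and none of the 78 list counts moved by over 1.5 times. Each remaining gene keeps its own counts in that fit, so it cannot show whether this difference goes with changes in those genes. That was not tested.

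**Figure D1:**
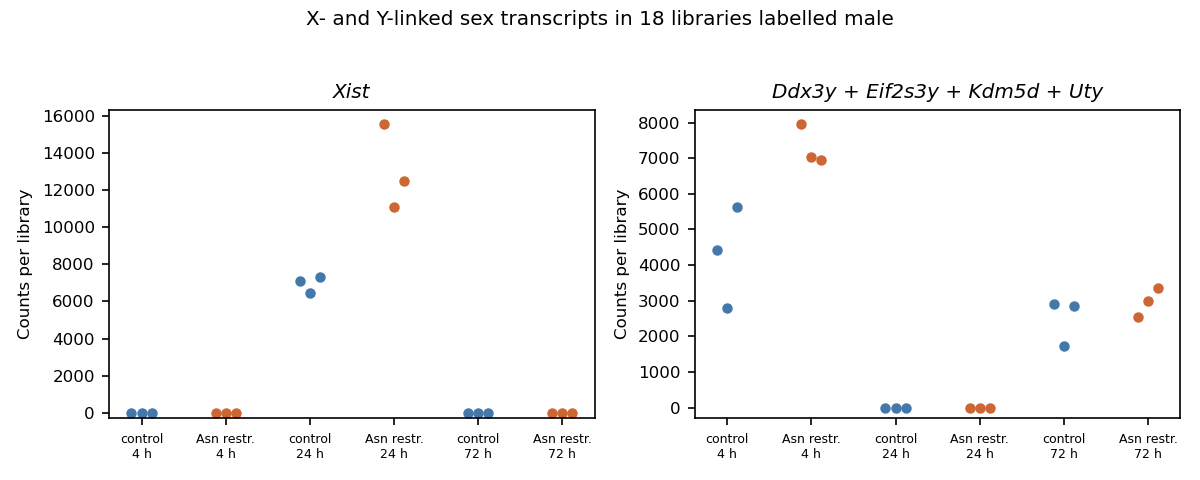
Counts of Xist and summed counts of 4 Y-linked genes in each of the 18 libraries, by time and medium, on linear axes; each point is a library, control blue and Asn restriction orange. The 6 libraries of 24 h have Xist at 6474 or more and no Y-linked count, and the 12 others have Xist at 5 or fewer.

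A resting CD8+ T cell that meets antigen and costimulation first grows: MYC and mTOR raise ribosome production, nucleotide and lipid synthesis and chaperones, and the cell then divides rapidly and takes on effector functions such as interferon-γ, granzymes and perforin. Asn is made inside the cell by asparagine synthetase, and a shortage of amino acids is sensed by the kinase GCN2, which raises translation of ATF4, a factor that turns on amino acid synthesis and transport genes. NRF2 (gene Nfe2l2) is a factor that raises antioxidant and NADPH-making enzymes.

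Asns, Nupr1 and Slc7a11, members of the ATF4 list taken up again below, are shown here because they carry in their promoters the 8-base composite element bound by ATF4 with C/EBP factors, which the search wrote as TGATGNAA, or TTNCATCA on the other strand. The promoter windows ran from 250 bases before to 50 bases after the RefSeq start on build GRCm38.p6, and 9952 of the 14871 genes tested had one. Capitals mark the element, each sequence reads 5′ to 3′ on the strand of its gene, and a match is a description of the letters, not a measured binding site.
Asns, chr6:7693215-7693242, minus strand: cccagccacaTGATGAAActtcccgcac
Nupr1, chr7:126625563-126625590, minus strand: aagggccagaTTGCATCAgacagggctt
Slc7a11, chr3:50443643-50443689, minus strand: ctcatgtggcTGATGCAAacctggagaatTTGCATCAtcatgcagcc
Slc7a11 holds the element on both strands within one stretch. Of the 40 matched promoters of the ATF4 list, 14 (35%) held the element, beside 218 of 9952 (2.19%) over all tested genes. The list was drawn up as one of ATF4 targets, so a higher share was built into it and tests nothing in these data.

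The restricted 72 h libraries had 15060833 to 19696447 counts on genes, the control 24 h libraries 18174720 to 20101314 and the control 72 h libraries 11417641 to 16969456. Levels below are counts of a gene per 1000000 counts of its library (CPM), scaled by trimmed mean of M values (TMM), fold changes and adjusted p-values are from edgeR's quasi-likelihood test, and a call is an adjusted p under 0.05 over all genes tested. Of 14871 genes, 4670 (31.4%) were higher and 4613 (31.0%) were lower under Asn restriction at 72 h than in control at 24 h. With at least a 2-fold difference, 1929 (13.0%) were higher and 1436 (9.66%) were lower. The 3 restricted and 3 control libraries did not overlap for 9876 genes (66.4%), with all 3 restricted libraries above for 4978 (33.5%) and all 3 below for 4898 (32.9%). In either direction, 9283 genes (62.4%) differed from control 24 h. Between the controls, 10523 genes (70.8%) differed, 5310 (35.7%) higher and 5213 (35.1%) lower at 72 h than at 24 h, of which 2686 (18.1%) and 2227 (15.0%) by at least 2-fold. Between the media at 72 h, 7313 genes (49.2%) differed, 3774 (25.4%) higher and 3539 (23.8%) lower under restriction, of which 647 (4.35%) and 788 (5.30%) by at least 2-fold. Scaling by the ERCC spike-ins, synthetic RNAs added to each sample, moved the median of all genes from -0.02 to 0.23 on the log2 scale and the share of calls that were higher from 50.3% to 73.0%, so directions below are relative to the median gene. The medians of 6 lists turned from negative to positive under this scaling: cholesterol synthesis, cytosolic chaperones and proteasome, pentose phosphate and PRPP, serine and one-carbon, immediate early and TCR-induced genes (-0.05 to 0.20), and chemokine receptors and homing (-0.09 to 0.16).

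Over all genes, late restricted cells stood nearer to control cells of their own age than to early ones. The root mean square difference in log2 CPM of the 3 restricted libraries was 1.15 ± 0.0088 (SD, n = 3) to the mean of control 24 h, 1.84 ± 0.012 (SD, n = 3) to control 4 h and 0.700 ± 0.0068 (SD, n = 3) to control 72 h. The restricted mean was nearer to control 24 h than to control 72 h for 6149 genes (41.3%). The 95% interval of the fold change lay within 1.5-fold of control 24 h for 5061 genes (34.0%) and within 1.5-fold of control 72 h for 5701 (38.3%). For control 72 h it lay within 1.5-fold of control 24 h for 3602 genes (24.2%). The comparisons share libraries and are set side by side only.

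Of 34 functional gene lists, 8 stood nearer to control 24 h and 26 nearer to control 72 h, and for each of the 8 this held in all 3 restricted libraries. The 8 were cytosolic chaperones and proteasome (distance 0.50 to control 24 h and 0.93 to control 72 h), pentose phosphate and PRPP synthesis (0.37 and 0.79), cholesterol synthesis (0.63 and 1.06), purine and pyrimidine synthesis (0.63 and 0.98), MYC and ribosome biogenesis (0.77 and 0.98), the TCA cycle and respiratory chain (0.32 and 0.52), S phase and replication (0.62 and 0.76) and cytosolic ribosomal proteins (0.21 and 0.28). Not every biosynthesis list was among them: fatty acid synthesis and desaturation (2.02 and 0.75) and serine and one-carbon (1.19 and 1.02) were nearer to control 72 h. Mitosis, hypoxia, effector molecules, p53 targets and the ATF4 list were among the 26. For 3 of the 8 the mean of Asn restriction 24 h was nearer still, at 0.55 for MYC and ribosome biogenesis, 0.54 for purine and pyrimidine synthesis and 0.43 for chaperones and proteasome.

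**Figure D2:**
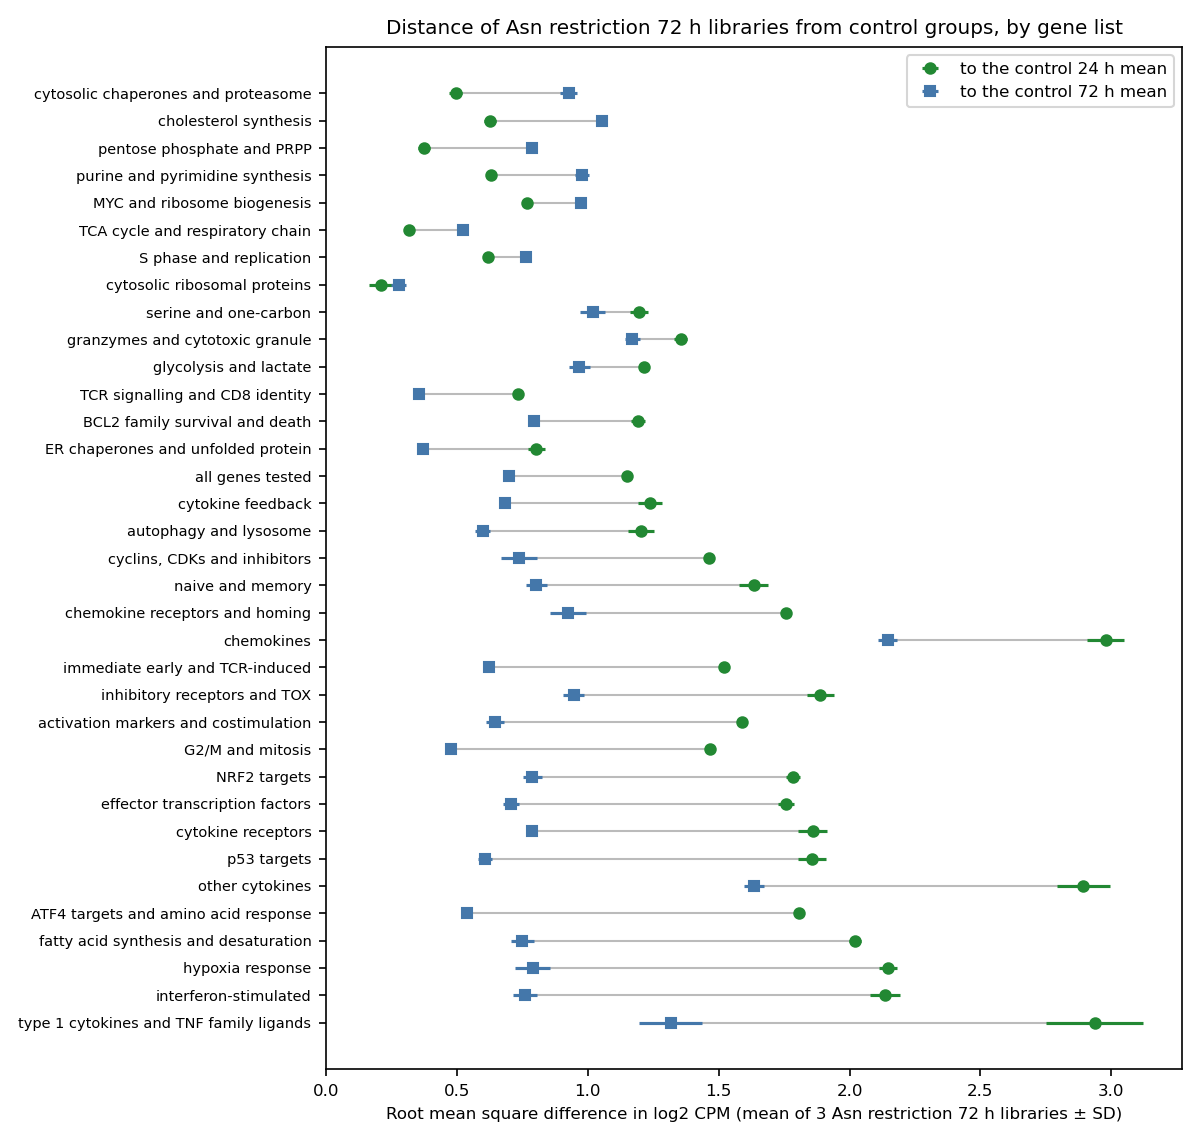
Root mean square difference in log2 CPM (horizontal axis) of the restricted 72 h libraries from the mean of control 24 h (green circles) and of control 72 h (blue squares), for each gene list and for all genes tested; points are means of 3 libraries and bars are SD. In the top 8 rows the circle lies left of the square, as for cytosolic chaperones and proteasome at 0.50 and 0.93, and in the other 26 lists and for all genes the square lies left.

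Genes of MYC-driven ribosome production were lower than in early control cells and higher than in control cells of the same age. Of 41 members, 39 were lower and 1, Polr1c, was higher than in control 24 h, with a median log2 difference of -0.71, and all 41 were higher than in control 72 h (25.4% of all genes were higher in that comparison) with a median of 0.87. Myc, the growth factor-induced transcription factor that drives this program, stood at 806, 767 and 778 CPM in control 24 h, 348, 350 and 361 under restriction at 72 h and 194, 200 and 196 in control 72 h. The 3 groups did not overlap, and the restricted cells lay in between, 2.22-fold below control 24 h (adjusted p = 3.7e-22) and 1.80-fold above control 72 h (adjusted p = 5.7e-18). Polr1b, a subunit of RNA polymerase I, which makes ribosomal RNA, stood at 220, 218 and 217 CPM in control 24 h, 88.9, 87.1 and 88.3 under restriction and 31.7, 31.7 and 30.8 in control 72 h. It too was intermediate, 2.48-fold below the early and 2.81-fold above the late control. Ncl, which encodes the nucleolar protein nucleolin, was 1.60-fold lower than in control 24 h (adjusted p = 2.3e-14), a call that spike-in scaling removed, and 1.75-fold higher than in control 72 h. Under spike-in scaling the median of the list kept its sign at -0.46, with 21 members lower.

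Enzymes that build nucleotides showed the same placing between the controls. Of 25 purine and pyrimidine synthesis genes, 19 were lower and 3 higher than in control 24 h (median -0.53; -0.27 with 5 lower under spike-in scaling), and 20 were higher than in control 72 h. Gart, which catalyses 3 steps of purine synthesis, was at 581, 578 and 599 CPM in control 24 h, 294, 314 and 299 under restriction and 99.3, 103 and 96.6 in control 72 h. No library of a group reached another group, and the restricted level was 1.94-fold below the early control (adjusted p = 1.3e-18) and 3.04-fold above the late one (adjusted p = 6.2e-23). Cad, which starts pyrimidine synthesis, was 1.89-fold below control 24 h and 1.90-fold above control 72 h, and Umps, which completes UMP, was 1.95-fold below and 2.41-fold above. The serine and one-carbon list, which feeds purines, was mixed, with 8 of 20 members higher and 10 lower than in control 24 h (8 and 5 under spike-in scaling, where the median of -0.05 turned to 0.21). Mthfd1, the cytosolic folate enzyme, was 2.05-fold below and 2.7-fold above, and Shmt1, the cytosolic serine hydroxymethyltransferase, 2.41-fold below and 3.29-fold above. Mthfd2, the mitochondrial folate enzyme, was 1.42-fold higher than in control 24 h, and Psph, which completes serine synthesis, 1.96-fold higher. Mat2a, which makes the methyl donor S-adenosylmethionine, had the largest fall from 24 h to 72 h of these in control cells, 15.6-fold, and was 3.51-fold lower under restriction at 72 h than in control 24 h.

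Most genes of the pentose phosphate pathway, which makes NADPH and the ribose of nucleotides, were near their control 24 h level. Of 13 members, 3 were higher and 6 lower than in control 24 h, beside 31.4% and 31.0% of all genes. An interval within 1.5-fold of control 24 h was found for 9 (34.0% of all genes), and 8 were higher than in control 72 h (25.4% of all genes). The median of -0.10 turned to 0.17 under spike-in scaling. Pgd, the second NADPH-making step, stood at 207, 209 and 218 CPM in control 24 h, 200, 205 and 188 under restriction and 63.3, 58.5 and 50.1 in control 72 h. The restricted libraries lay just below the early control libraries, without overlap, and the log2 difference of -0.10 did not pass the test (95% interval -0.22 to 0.02, adjusted p = 0.15). G6pdx, the X-linked entry enzyme, was 1.24-fold higher than in control 24 h (adjusted p = 8.6e-06) and 2.01-fold higher than in control 72 h.

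Sterol genes were mostly above the late control. Of 28 cholesterol synthesis genes, 9 were higher and 9 lower than in control 24 h, 32.1% each way and near the shares over all genes, with a median of -0.06 (9 and 3, with a median of 0.19, under spike-in scaling), 16 had an interval within 1.5-fold, and 23 were higher than in control 72 h. Hmgcs1, an early enzyme of the mevalonate pathway and a target of SREBP2, was at 394, 419 and 416 CPM in control 24 h, 316, 339 and 315 under restriction and 102, 108 and 113 in control 72 h. Restricted cells were thus 1.27-fold below the early control (adjusted p = 1.1e-07, not called under spike-in scaling) and 3.02-fold above the late one. Abcg1, which exports cholesterol and is raised by liver X receptors, had the opposite course in control cells and was also near control 24 h: 19.7, 20.4 and 18.7 CPM in control 24 h, 22.2, 23.0 and 21.3 under restriction, and 96.0, 97.3 and 89.3 in control 72 h. Fasn, fatty acid synthase, was 2.40-fold below control 24 h and 1.99-fold above control 72 h. Scd1, the desaturase that makes oleate, was 5.30-fold above control 24 h and 1.33-fold above control 72 h, and so higher than in either.

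Cytosolic chaperones and proteasome subunits were among the 8 lists nearer to control 24 h. Of 32 members, 7 were higher and 15 lower than in control 24 h (5 and 2 under spike-in scaling), 24 had an interval within 1.5-fold, and 29 were higher than in control 72 h with a median of 0.78; the median against control 24 h of -0.08 turned to 0.18 under spike-in scaling. Hsp90aa1, the inducible HSP90, stood at 1443, 1520 and 1542 CPM in control 24 h, 1615, 1791 and 1615 under restriction and 482, 451 and 522 in control 72 h. All 3 restricted libraries were above the early control by a small margin, 1.11-fold (adjusted p = 0.015; leaving out restricted replicate 2 or control 24 h replicate 1 ended the call, at log2 differences of 0.11 and 0.13), and 3.45-fold above the late control. Hspa8, the constitutive HSC70, was not near control 24 h: it was 2.34-fold below control 24 h and 2.12-fold above control 72 h. In the TCA cycle and respiratory chain, 37 of 43 genes had an interval within 1.5-fold of control 24 h (34.0% of all genes did). Most were also near the late control, with 30 of 43 within 1.5-fold of control 72 h (38.3% of all genes). Against control 24 h, 19 were higher and 6 lower. Dld, the E3 subunit shared by pyruvate and oxoglutarate dehydrogenases, was higher than in each control group (1.66-fold over 24 h and 2.68-fold over 72 h), while Ogdh, the E1 subunit of oxoglutarate dehydrogenase, was lower than in each (1.69-fold and 1.3-fold). Of 48 cytosolic ribosomal protein genes, 45 had an interval within 1.5-fold of control 24 h and 46 within 1.5-fold of control 72 h, and their median of 0.06 turned to -0.02 without TMM.

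**Figure D3:**
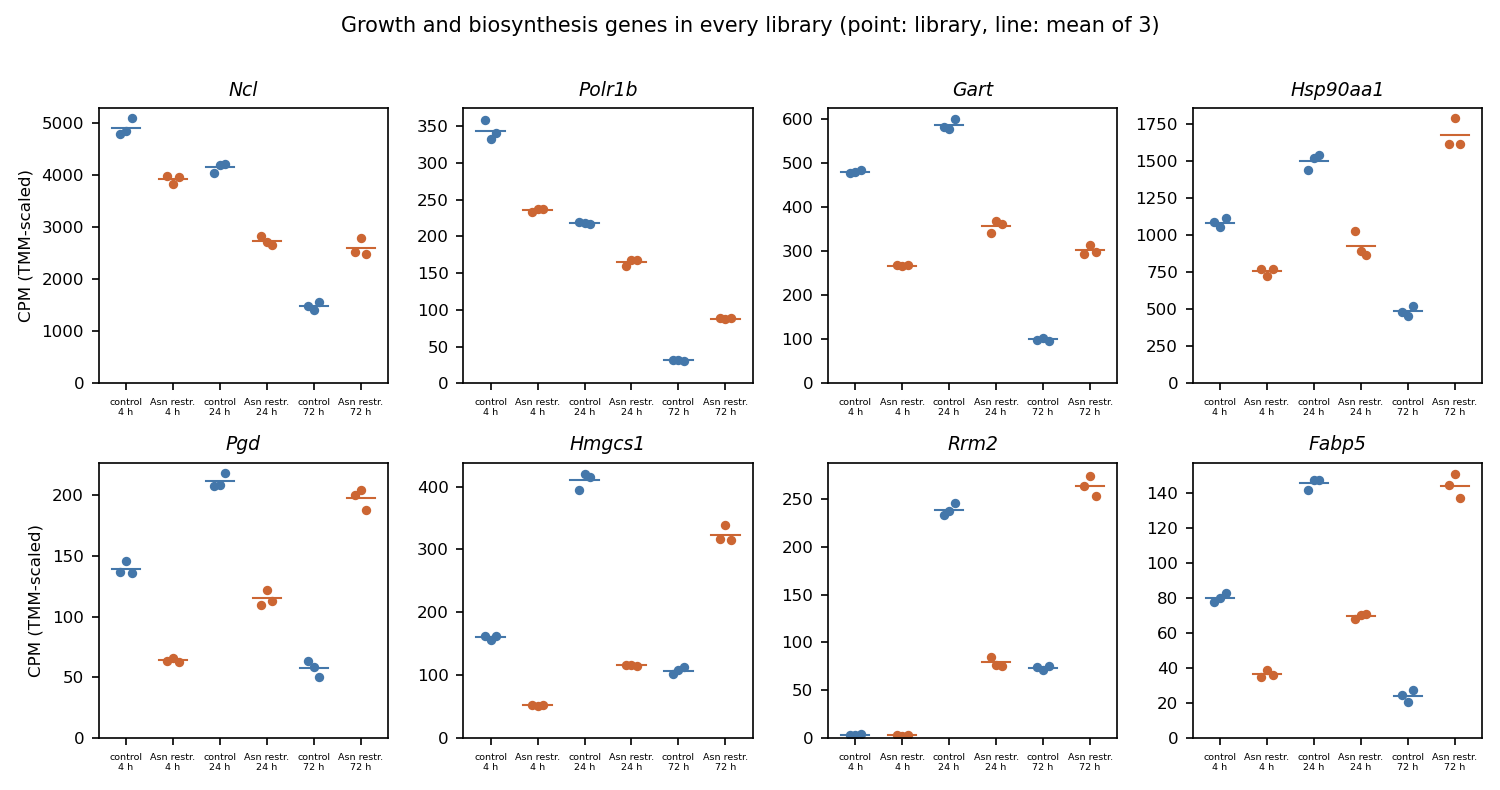
CPM on a linear axis from 0 of 8 growth and biosynthesis genes, 1 panel a gene, in each of the 18 libraries by medium and time; points are libraries, lines are means of 3, control is blue and Asn restriction orange. Restricted 72 h Polr1b and Gart lie between control 24 h and control 72 h (Polr1b 87.1 to 88.9 CPM, beside 217 to 220 and 30.8 to 31.7), and restricted 72 h Fabp5 overlaps control 24 h.

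DNA replication genes followed the growth lists and mitotic genes did not. Of 52 S phase and replication genes, 36 were lower and 4 higher than in control 24 h (median -0.46; -0.20 with 15 lower under spike-in scaling), and 43 were higher than in control 72 h. Mcm2, a subunit of the replicative helicase, was at 476, 449 and 445 CPM in control 24 h, 234, 221 and 226 under restriction and 127, 135 and 126 in control 72 h. The restricted libraries were 2.01-fold below and 1.75-fold above these controls, without overlap. E2f1, the transcription factor of the G1/S switch, was 2.71-fold below control 24 h and 1.29-fold above control 72 h. Rrm2 and Tk1, which make deoxynucleotides, were exceptions: Rrm2 was 3.58-fold above control 72 h and within 1.10-fold of control 24 h (adjusted p = 0.036, lost without restricted replicate 1 or 2 or control 24 h replicate 1 or 2, at log2 differences of 0.11 to 0.15), and Tk1 was 2.33-fold above control 24 h and 1.89-fold above control 72 h.

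Of 53 G2/M and mitosis genes, 51 were higher than in control 24 h and none was lower (median 0.98), and 23 were higher than in each of the 3 control groups (4.66% of all genes were). Most of the rise was shared with control 72 h, where 44 were higher than in control 24 h (median 0.87). Against control 72 h, 26 were higher and 4 lower under restriction (median 0.19), and 37 had an interval within 1.5-fold. Ccnb1, the cyclin of entry into mitosis, was at 44.0, 49.2 and 49.0 CPM in control 24 h, 148, 176 and 165 under restriction and 68.5, 66.0 and 70.2 in control 72 h. It was the highest in restricted cells in every library, 3.44-fold above control 24 h (adjusted p = 3.8e-18) and 2.39-fold above control 72 h (adjusted p = 3.5e-14). Ccnb2 rose as far as in control cells and no further: 10.1-fold over control 24 h, and within 1.01-fold of control 72 h (adjusted p = 0.92). Aurka, the mitotic kinase, was 4.33-fold above control 24 h and 1.30-fold above control 72 h. Psrc1, a spindle protein and p53 target, stayed short of its late control level, 18.6-fold above 24 h and 2.54-fold below 72 h.

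Of 22 p53 targets, 16 were higher and 4 lower than in control 24 h (median 1.51), against 7 higher and 8 lower than in control 72 h (23.8% of all genes were lower there). Most of the rise was shared with control 72 h, where 15 were higher and 4 lower than in control 24 h (median 2.10). Under restriction, 12 had an interval within 1.5-fold of control 72 h (38.3% of all genes did). Cdkn1a, the CDK inhibitor p21, stood at 18.4, 19.8 and 19.4 CPM in control 24 h, 456, 426 and 463 under restriction and 257, 246 and 249 in control 72 h. It was 23.3-fold above the early and 1.79-fold above the late control, and higher than in each control group. The p27 gene Cdkn1b instead stopped between the controls, 2.09-fold above 24 h and 1.52-fold below 72 h. Ddit4, an mTORC1 inhibitor, was 11.9-fold above control 24 h and 1.28-fold above control 72 h.

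Most genes of the amino acid response were higher than in early control cells. Of 51 ATF4 targets and amino acid response genes tested, 41 were higher and 4 lower than in control 24 h (median 0.74, with 40 higher and none lower under spike-in scaling), and 15 were higher than in each control group. The controls differed in the same direction, with 34 members higher at 72 h than at 24 h (35.7% of all genes were higher there). Under restriction, 17 members had an interval within 1.5-fold of control 24 h (34.0% of all genes did). Within 1.5-fold of control 72 h there were 30 (38.3% of all genes), and 28 were higher and 10 lower than in control 72 h. Asns (ENSMUSG00000029752.12, chr6:7675169-7693254, minus strand, mm10), asparagine synthetase, was at 63.0, 66.5 and 64.3 CPM in control 24 h, 378, 356 and 364 under restriction and 237, 263 and 234 in control 72 h. The restricted libraries were highest, 5.67-fold above control 24 h (log2 2.50 ± 0.06, SE; adjusted p = 3.1e-26) and 1.5-fold above control 72 h (adjusted p = 6.0e-11). Atf4 itself was 1.51-fold above control 24 h and 1.33-fold above control 72 h. Slc7a11, the cystine transporter that is also an NRF2 target, was at 5.79, 6.37 and 8.59 CPM in control 24 h, 38.0, 40.5 and 37.7 under restriction and 13.7, 13.5 and 19.1 in control 72 h, and so was the highest under restriction in all 3 libraries.

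Other members of the list passed the early level and stopped short of the late control. Nupr1, a stress-induced chromatin protein, was at 0.531, 0.535 and 0.442 CPM in control 24 h, 31.8, 29.3 and 28.8 under restriction and 55.1, 61.1 and 61.9 in control 72 h. It was thus 58.8-fold above the early control (adjusted p = 2.1e-23) and 1.98-fold below the late one (adjusted p = 3.7e-10). Ddit3, the stress factor CHOP, was 11.7-fold above and 1.72-fold below, and Aldh1l2, a mitochondrial folate enzyme, 12.8-fold above and 1.75-fold below. Stc2, a secreted glycoprotein of the stress response, exceeded each control group, at 20.3-fold over 24 h and 1.49-fold over 72 h. Of the 14 genes of the list whose matched promoter held the element, 13 were higher than in control 24 h and none lower, and of the 26 without it 20 were higher and 3 lower. This split was not tested.

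Of 31 NRF2 targets, 18 were higher and 5 lower than in control 24 h (median 0.31), beside 31.4% and 31.0% of all genes. Against control 72 h, 18 were higher and 5 lower (25.4% and 23.8% of all genes), and 7 were higher than in each control group (4.66% of all genes). Between the controls, 14 were higher and 13 lower at 72 h than at 24 h (median 0.26). Under restriction, 14 of the 31 had an interval within 1.5-fold of control 24 h (34.0% of all genes did). Hmox1, heme oxygenase, was at 4.05, 3.48 and 4.71 CPM in control 24 h, 36.7, 43.1 and 39.2 under restriction and 18.5, 17.4 and 20.0 in control 72 h. It was 9.69-fold above the early and 2.13-fold above the late control without overlap. Me1, the cytosolic malic enzyme, which makes NADPH, was at or near 0 at 24 h (0.00, 0.107 and 0.196 CPM), and at 29.7, 34.7 and 32.9 under restriction and 9.69, 9.11 and 9.89 in control 72 h. The antioxidant response motif, searched as TGACNNNGC or GCNNNGTCA, stood in 11 of the 27 matched promoters of this list (40.7%) and in 15% of all matched promoters. The list was drawn up as one of NRF2 targets, so a higher share was built into it. Of the 11 genes with the motif 6 were higher and 2 lower, and of the 16 without it 10 were higher and 2 lower. This split was not tested.

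Glycolysis and hypoxia genes rose above the early control and in many cases above every control group. Of 24 glycolysis and lactate genes, 21 were higher and 3 lower (Ldhb, Slc16a1 and Pfkfb3) than in control 24 h (median 0.98), and 13 were higher than in each control group. Between the controls, 18 of the 24 were higher at 72 h than at 24 h, with a median of 0.53 (35.7% of all genes were higher there). Slc2a1, the glucose transporter GLUT1, was at 144, 137 and 137 CPM in control 24 h, 386, 374 and 393 under restriction and 157, 179 and 161 in control 72 h. The controls differed little from each other, and restricted cells were 2.76-fold above the early one (adjusted p = 1.3e-20) and 2.33-fold above the late one (adjusted p = 4.3e-18). Hk2, the hexokinase induced in growing cells, was 2.35-fold and 1.81-fold above, and Slc16a3, the lactate exporter MCT4, 8.80-fold and 2.34-fold above. Of 20 hypoxia response genes, 19 were higher and none lower than in control 24 h (median 1.41), and 10 were higher than in each control group. Between the controls, 17 of the 20 were higher at 72 h than at 24 h, with a median of 1.54. Under restriction, 10 had an interval within 1.5-fold of control 72 h, so much of the rise over control 24 h was shared with control 72 h. Bnip3, which marks mitochondria for removal, was 17.8-fold above control 24 h and 1.63-fold above control 72 h, and Egln3, an oxygen-sensing prolyl hydroxylase, 11.6-fold and 2.03-fold above. Vegfa and Slc2a1 each belong to more than a single list.

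**Figure D4:**
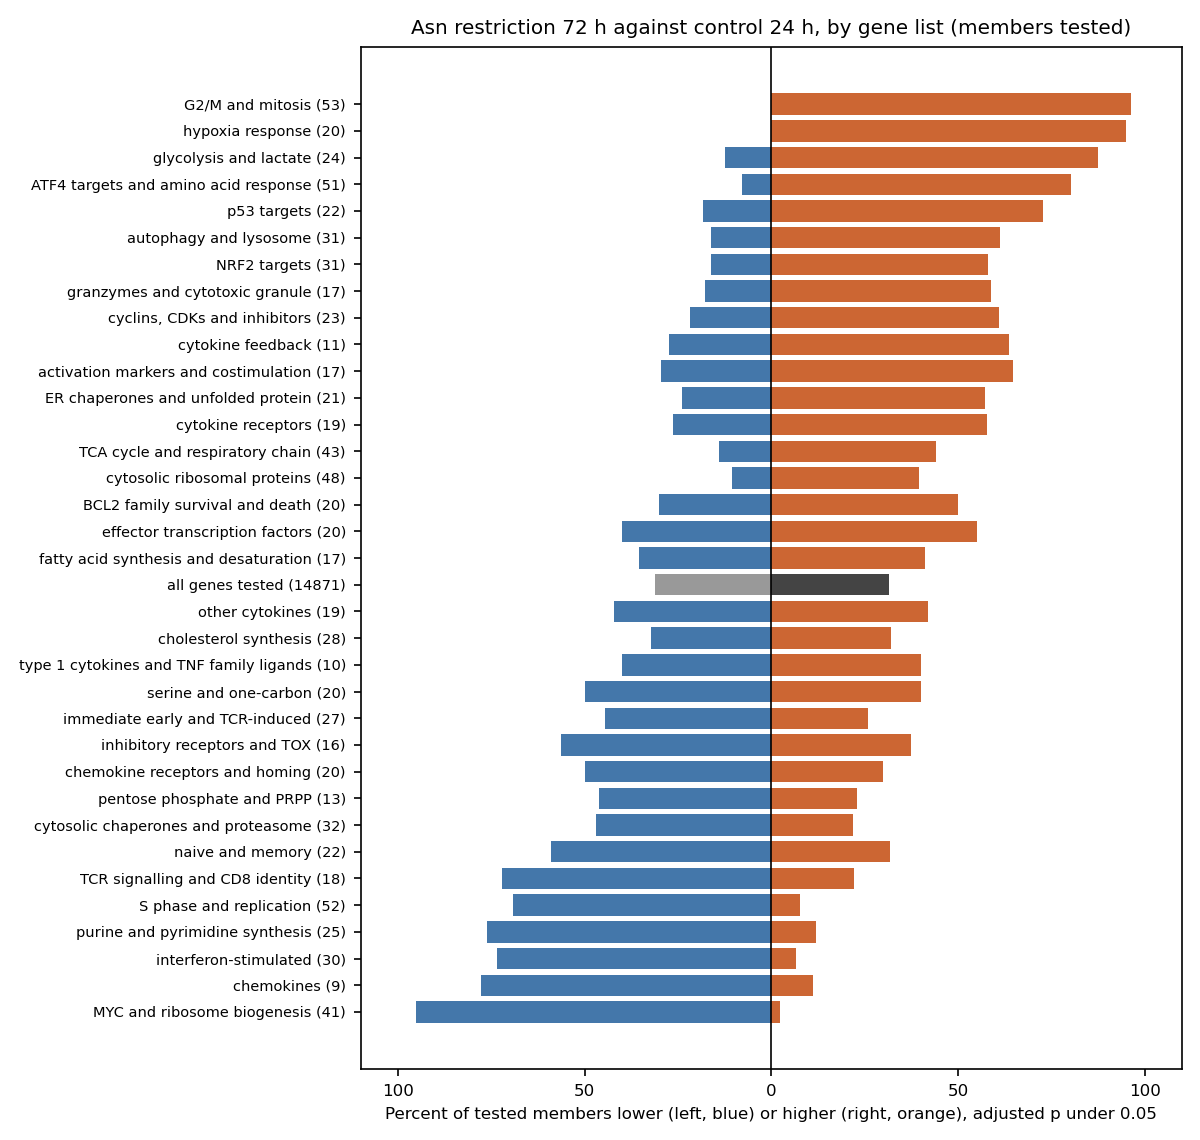
Percent of the tested members of each gene list that were higher (right, orange) or lower (left, blue) under Asn restriction at 72 h than in control 24 h at an adjusted p under 0.05, with the number tested in brackets; the grey row is all genes tested, at 31.4% higher and 31.0% lower. Mitosis (51 of 53 higher) and hypoxia (19 of 20 higher) are at one end, and MYC and ribosome biogenesis (39 of 41 lower) at the other.

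Of 10 genes of type 1 cytokines and TNF family ligands, 4 were higher and 4 lower than in control 24 h, and 2, Ifng and Lta, were higher than in each control group. The lower members were Il2, taken up below, and the TNF family ligand genes Tnfsf8 (6.08-fold), Tnfsf11 (5.59-fold) and Tnfsf14 (2.96-fold). Ifng (ENSMUSG00000055170.4, chr10:118441046-118445892, plus strand, mm10), the gene of interferon-γ, was at 245, 261 and 243 CPM in control 24 h, 3272, 3261 and 3428 under restriction and 702, 770 and 692 in control 72 h. The 3 restricted libraries were above every control library, 13.3-fold over control 24 h (log2 3.73 ± 0.05, SE; adjusted p = 2.4e-32) and 4.61-fold over control 72 h (adjusted p = 2.0e-26), and control 4 h had a mean of 1196 CPM. Lta, lymphotoxin alpha, was at 88.2, 86.5 and 89.9 CPM in control 24 h and 838, 833 and 825 under restriction, 9.43-fold above it and 2.67-fold above control 72 h. Tnf, its neighbour in the genome, was near its control 24 h level: 75.1, 84.6 and 77.9 CPM in control 24 h, 82.4, 75.0 and 79.2 under restriction and 40.7, 32.4 and 40.7 in control 72 h. The early control and restricted Tnf libraries overlapped (95% interval of the log2 difference -0.14 to 0.12, adjusted p = 0.94), and the late control was lower.

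Gzmb, granzyme B, stood at 2658, 2754 and 2778 CPM in control 24 h, 8476, 8668 and 8206 under restriction and 3402, 2865 and 3600 in control 72 h. It was 3.10-fold above control 24 h (adjusted p = 3.8e-22) and 2.57-fold above control 72 h, without overlap. Prf1, the pore-forming perforin, was at 73.3, 67.4 and 67.3 CPM in control 24 h, 148, 139 and 147 under restriction and 23.5, 22.1 and 28.1 in control 72 h. The control level was thus lower at 72 h than at 24 h, and restricted cells exceeded both. Gzma, granzyme A, went the other way, 7.37-fold below control 24 h and 2.64-fold above control 72 h. Of 17 granzyme and cytotoxic granule genes, 10 were higher and 3 lower than in control 24 h, and Gzmb, Prf1, Fasl (FAS ligand) and Tnfsf10 (TRAIL) were higher than in each control group. Gzmc did not pass the test against control 24 h, at 16.8, 19.2 and 16.4 CPM and 21.3, 20.8 and 19.5 under restriction, and was 5.08-fold above control 72 h. Granzymes of this cluster are alike in sequence, so reads may have been split between them.

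Cytokine and chemokine genes differed from control 24 h gene by gene. Il2, the T cell growth factor, was at 51.0, 50.4 and 48.3 CPM in control 24 h and 0.952, 0.288 and 0.208 under restriction, 109-fold lower (adjusted p = 4.9e-23), and at 0.00, 0.0836 and 0.00 in control 72 h. Xcl1, lymphotactin, was 55.5-fold lower than in control 24 h, at 7.01, 6.40 and 4.31 CPM, and 2.01-fold above control 72 h. Ccl1 had no count in the restricted or late control libraries, at least 17.6-fold lower than in control 24 h for a floor of 3 counts per library. Ccl3, the macrophage inflammatory protein 1 alpha, was at 193, 182 and 186 CPM in control 24 h, 72.0, 73.9 and 83.1 under restriction and 4.23, 3.76 and 5.52 in control 72 h. It was intermediate, 2.44-fold below the early and 16.7-fold above the late control, and its neighbour Ccl4 likewise, 1.83-fold below and 12.7-fold above. Of 9 chemokines tested, 7 were lower and 1, Ccl5, was higher than in control 24 h (median -2.20). Il10, an anti-inflammatory cytokine, was at 0.627, 0.321 and 0.393 CPM in control 24 h, 21.0, 19.9 and 23.9 under restriction and 2.34, 3.59 and 2.28 in control 72 h, 47.2-fold above the early and 8.07-fold above the late control. Il24, an IL-10 family cytokine, rose in both media, to 127 CPM under restriction and 72.8 in control 72 h from 0.765 in control 24 h.

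**Figure D5:**
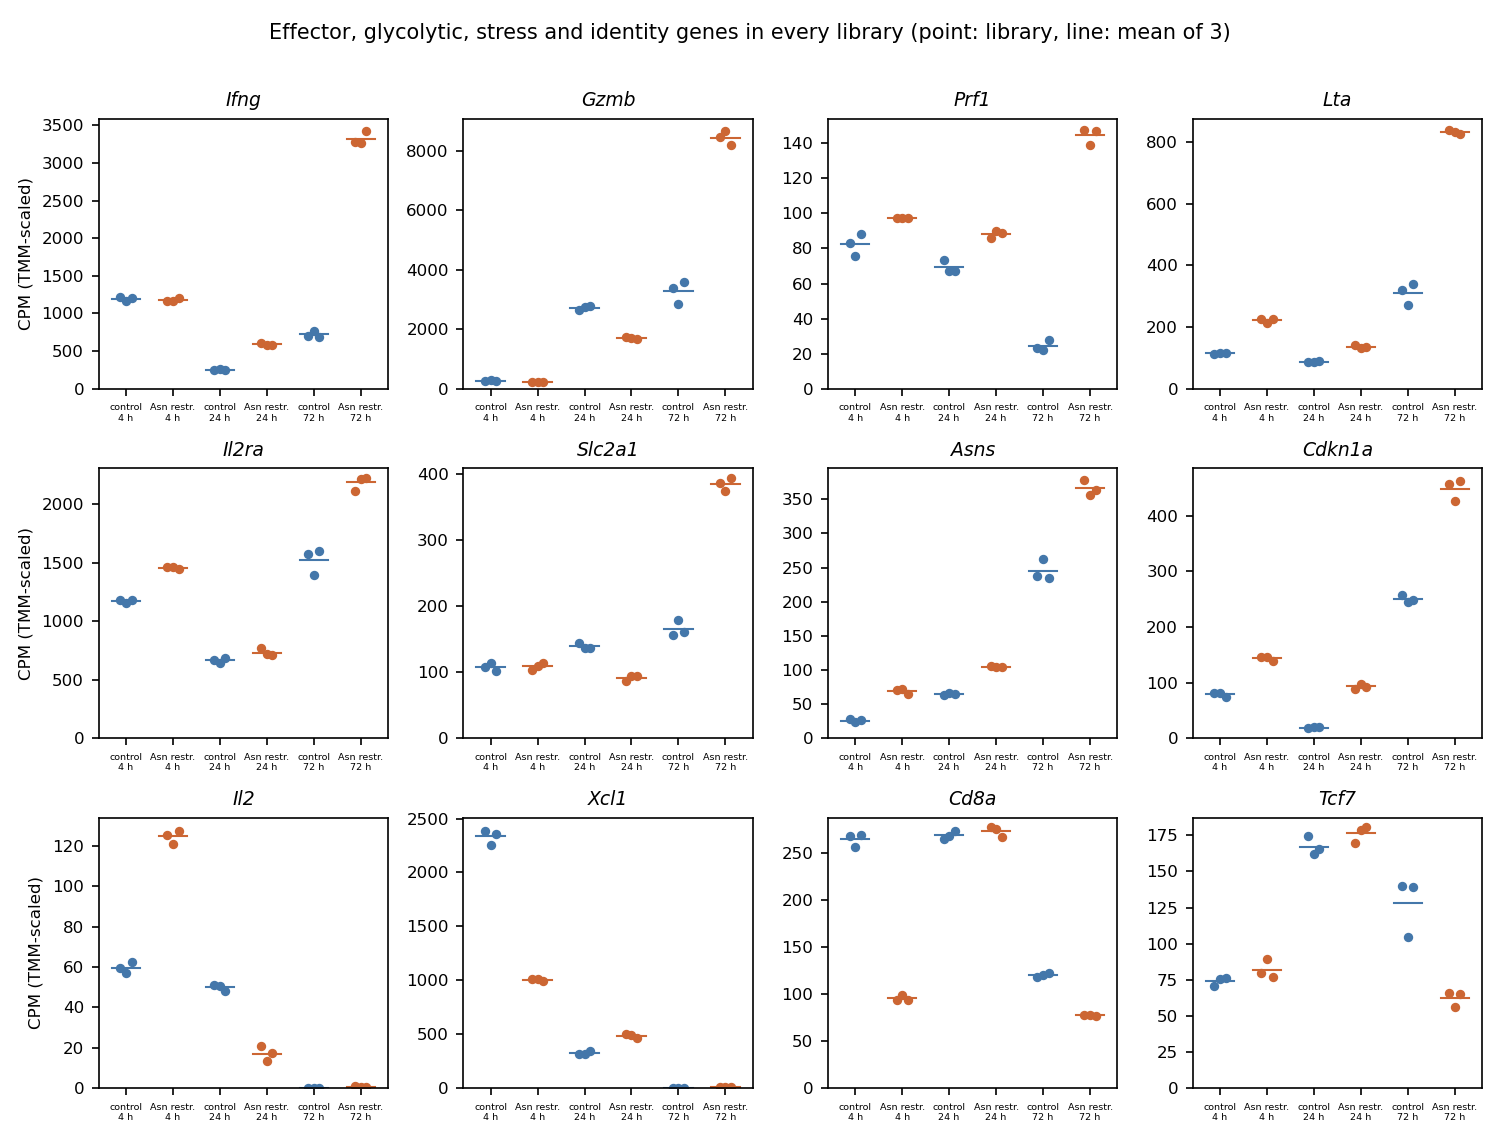
CPM on a linear axis from 0 of 12 effector, glycolytic, stress and identity genes, 1 panel a gene, in each of the 18 libraries by medium and time; points are libraries, lines are means of 3, control is blue and Asn restriction orange. Restricted 72 h Ifng (3261 to 3428 CPM) and Gzmb (8206 to 8668) lie above all other libraries shown, and restricted 72 h Cd8a (77.1 to 78.0) and Tcf7 (56.3 to 65.6) lie below all control libraries.

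Among 20 effector transcription factors, 11 were higher and 8 lower than in control 24 h, and only 1 had an interval within 1.5-fold of it. Prdm1, which encodes BLIMP-1, a driver of terminal effector differentiation, was at 2.90, 2.46 and 2.11 CPM in control 24 h, 29.6, 31.4 and 30.4 under restriction and 10.7, 11.1 and 11.2 in control 72 h. It was 12.2-fold above the early control (adjusted p = 4.1e-20) and 2.78-fold above the late one. Batf3, an AP-1 family factor, was 7.57-fold above control 24 h and 1.30-fold above control 72 h, and Tbx21, the type 1 factor T-bet, 1.42-fold and 1.12-fold above. Eomes, the relative of T-bet, was 4.82-fold below control 24 h and 1.59-fold above control 72 h. Gata3, the type 2 factor, was lower than in each control group, 7.24-fold and 2.60-fold.

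More naive and memory genes were lower than higher in late restricted cells. Of 22 members, 13 were lower and 7 higher than in control 24 h (median -0.46; -0.23 with 9 lower under spike-in scaling), 16 were lower than in control 72 h, and 7 were lower than in each control group (2.90% of all genes were). Bach2, a repressor that keeps T cells from effector differentiation, was at 205, 196 and 208 CPM in control 24 h, 54.4, 61.8 and 52.1 under restriction and 76.8, 80.4 and 86.9 in control 72 h. The restricted libraries were the lowest, 3.62-fold below the early control (adjusted p = 4.7e-23) and 1.45-fold below the late one. Tcf7, the factor TCF-1 of naive and memory T cells, was at 174, 162 and 165 CPM in control 24 h, 65.6, 56.3 and 64.8 under restriction and 140, 105 and 139 in control 72 h, 2.69-fold and 2.07-fold lower. Il7r, the receptor of the survival cytokine IL-7, was 3.53-fold above control 24 h and 2.06-fold below control 72 h. Ccr7, the lymph node homing receptor, was 2.7-fold and 1.5-fold lower, and so below each control group.

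Genes of surface receptors also differed from both controls. Il2ra, the high-affinity IL-2 receptor chain CD25, was at 670, 647 and 683 CPM in control 24 h, 2115, 2217 and 2227 under restriction and 1576, 1397 and 1603 in control 72 h, 3.28-fold and 1.43-fold higher. Tnfrsf8, the TNF receptor family member CD30, was 32.0-fold above control 24 h and 2.26-fold above control 72 h, and Ctla4, the inhibitory receptor, 6.17-fold and 2.25-fold above. Lag3, another inhibitory receptor, was instead close to its control 24 h level: 83.1, 81.6 and 83.4 CPM in control 24 h, 105, 93.4 and 92.1 under restriction and 237, 269 and 237 in control 72 h. The IL-18 receptor chain gene Il18r1 was 24.8-fold above control 24 h and 2.14-fold above control 72 h, and the IL-33 receptor gene Il1rl1 24.3-fold and 4.17-fold above. Cd69, an early activation marker, was 3.70-fold below control 24 h and 1.52-fold above control 72 h, and Nr4a3, a gene induced by T cell receptor signals, 9.39-fold and 1.58-fold below.

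Of 18 genes of T cell receptor signalling and CD8 identity, 13 were lower and 4 higher than in control 24 h (median -0.47; -0.22 with 5 lower under spike-in scaling), and 5 were lower than in each control group. Between the controls, 10 were lower and 6 higher at 72 h than at 24 h (median -0.37). Against control 72 h, 9 were lower and 6 higher under restriction (median -0.09). Of the 18, 14 had an interval within 1.5-fold of control 72 h (38.3% of all genes did). Cd8a, the defining coreceptor chain, was at 265, 268 and 274 CPM in control 24 h, 78.0, 78.0 and 77.1 under restriction and 119, 121 and 122 in control 72 h, 3.46-fold below the early control (adjusted p = 8.8e-25) and 1.55-fold below the late one. The summed level of the 5 CD8 T cell markers was 912 to 915 CPM in control 24 h and 632 to 643 under restriction, and none was at 0. Defining markers of other cells were summed. The 8 B cell markers summed to 88.3 to 98.5 CPM in control 24 h and 35.0 to 42.3 under restriction, where Ms4a1 and Pax5 had no count. The 8 myeloid and dendritic markers summed to 1.91 to 2.57 and 0.231 to 0.831 CPM, and the 6 natural killer and γδ T cell markers to 7.53 to 9.82 and 1.35 to 2.19. Wider lists of these cells also held genes that rose: of 10 B cell genes tested 8 were lower and 2, Ebf1 and Fcmr, higher than in control 24 h, of 9 natural killer and γδ T cell genes 5 were lower and 1, Klrk1, higher (16.27 to 17.96 CPM, and 68.4 to 73.8 under restriction), and of 9 myeloid and dendritic genes 6 were lower and 1, H2-Ab1, higher (3.85 to 5.89 CPM, and 24.6 to 27.4). The 4 CD4 and regulatory T cell markers summed to 18.1 to 21.3 CPM in control 24 h, 87.4 to 95.1 under restriction and 136 to 150 in control 72 h, mostly from Zbtb7b and Ikzf4, while Cd4 was at 0.208 to 0.476 CPM and Foxp3 at 0.104 to 0.340 under restriction. In bulk RNA, fewer cells of a type and less RNA per cell cannot be told apart, and the part of these other cells in the results was not tested.

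Interferon-stimulated genes were mostly below the early control. Of 30 members, 22 were lower and 2 higher (median -1.12; -0.92 with 17 lower under spike-in scaling), and 5 were lower than in each control group (2.90% of all genes were). Between the controls, 20 were lower and 10 higher at 72 h than at 24 h, with a like median of -1.11. Against control 72 h, 13 were lower and 3 higher under restriction (median -0.41). Iigp1, an immunity-related GTPase induced by interferon-γ, was at 94.2, 98.6 and 96.7 CPM in control 24 h, 3.27, 3.06 and 2.65 under restriction and 2.34, 2.26 and 2.7 in control 72 h. It was 32.5-fold below the early control and did not pass the test against the late one (adjusted p = 0.19). Xaf1, an interferon-induced gene linked to cell death, was 17.5-fold below control 24 h, also without a called difference from control 72 h.

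Genes that no control time point reached numbered 693 above (4.66%) and 432 below (2.90%) all 3 control groups, of which 103 (0.693%) and 65 (0.437%) passed by at least 2-fold. The counts depended on the scaling: under spike-in scaling 21 genes were below each control, and without TMM 456 were above and 700 below. Metallothioneins, small proteins that bind zinc and copper, were among the largest on the high side. Mt1 was at 2.27, 3.10 and 3.09 CPM in control 24 h, 128, 125 and 150 under restriction and 39.0, 36.5 and 42.6 in control 72 h, 47.6-fold and 3.40-fold higher. Mt2 was 202-fold and 4.12-fold higher, and its neighbour Mt3 stood at 62.5, 65.4 and 55.0 CPM under restriction, beside at most 0.294 in control 24 h and 14.6 to 15.4 in control 72 h. These 3 genes are adjacent on chromosome 8 and alike in sequence, so reads may have been split between them. Myh11, a smooth muscle myosin heavy chain, was at 75.7, 81.6 and 71.6 CPM under restriction, 13.0, 11.2 and 13.3 in control 72 h and 0.107 or less in control 24 h. S100a6, a calcium-binding protein, was 11.0-fold and 3.70-fold higher, and the cytoskeletal protein gene Rai14 3.94-fold and 3.43-fold higher.

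On the low side, Igf1r, the insulin-like growth factor receptor, was at 64.4, 65.5 and 64.8 CPM in control 24 h, 19.2, 21.2 and 19.8 under restriction and 53.6, 59.4 and 54.3 in control 72 h. The controls were close to each other, and the restricted libraries were 3.23-fold below the early one (adjusted p = 6.9e-20) and 2.77-fold below the late one. Ahr, the aryl hydrocarbon receptor, was 6.20-fold and 4.84-fold lower, Pacsin1, a membrane-trafficking protein gene, 5.04-fold and 3.56-fold lower, and Kit, the stem cell factor receptor, 9.93-fold and 6.83-fold lower. Kit was low throughout, at 2.38 CPM in control 24 h and 0.235 under restriction.

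Some genes whose control level changed by several fold between 24 h and 72 h were within or close to 1.5-fold of 24 h in late restricted cells. The choice took genes with an interval within 1.5-fold of control 24 h and ranked them by the control difference between 24 h and 72 h. Both traits are thus the selection itself, and the values below describe the genes it gave. Fabp5, a fatty acid-binding protein, was at 142, 148 and 148 CPM in control 24 h, 144, 151 and 137 under restriction and 24.3, 20.7 and 27.5 in control 72 h. The early control and restricted libraries overlapped (95% interval of the log2 difference -0.14 to 0.11), and the restricted level was 5.91-fold above the late control. The chemokine gene Ccl9 was at 23.5, 21.7 and 23.9 CPM in control 24 h, 19.9, 22.1 and 23.1 under restriction and 3.62, 1.34 and 3.24 in control 72 h. Bcl2a1d, a BCL2 family survival gene with near-identical copies, was at 28.8, 29.4 and 29.7, then 25.7, 23.6 and 20.5, and 5.07, 4.10 and 5.04 CPM in the same order. Rims3, known for its role in synaptic release, went the other way, at 7.29, 7.44 and 7.22 CPM in control 24 h, 9.52, 8.31 and 8.57 under restriction and 34.2, 37.2 and 33.1 in control 72 h.

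The largest rises over control 24 h outside the Y chromosome were in genes that control cells also gained by 72 h. Ermn, a cytoskeletal protein gene known from myelinating cells, was at 70.6, 77.1 and 68.5 CPM under restriction, 121, 103 and 130 in control 72 h and at most 0.161 in control 24 h. Dnah3, an axonemal dynein chain, Gap43, a growth cone protein, and Gfra1, a GDNF receptor, had no count in control 24 h and were at least 97.8-fold, 73.1-fold and 69.6-fold higher for a floor of 3 counts per library. Of these, Gfra1 was lower than in control 72 h, at 10.6, 11.0 and 9.87 CPM beside 24.3, 23.8 and 24.9. The largest falls besides Xist and Il2 included Slamf6, a signalling receptor of T cells, at 18.7, 16.6 and 18.6 CPM in control 24 h and 0.272, 0.404 and 0.623 under restriction, 39.6-fold lower. Lad1, a filament-anchoring protein gene, fell 19.9-fold, from 170, 183 and 173 to 8.16, 9.11 and 8.98 CPM, and neither gene passed the test against control 72 h.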

How the data were processed

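RNA of 18 libraries was sequenced on an Illumina HiSeq instrument. The authors' deposited table holds raw counts per gene, and the submitters' processing notes name Trim Galore 0.60, STAR 2.7, RSEM 1.31 and the builds hg19 and mm10, with no roles. The deposited table also holds size-factor-normalized signal, its group means, and the authors' log2 fold changes and adjusted p-values of restriction against control at each time; none of these was used. From the counts, 63 ERCC rows were left out and 14871 of 18522 genes passed filterByExpr. One edgeR 4.0.16 (R 4.3.3) quasi-likelihood fit of 6 group means over 18 libraries (12 residual degrees of freedom, TMM, Benjamini-Hochberg) gave every contrast. A gene was higher, or lower, than each control group when the largest one-sided p of its 3 contrasts with control 4 h, 24 h and 72 h passed 0.05 after adjustment. Distances used log2 CPM with a prior count of 2. No pair of same-group libraries agreed within counting error.

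Genes named were the first 2 tested of each list, up to 6 called members with the largest change, and the 10 largest rises and falls. Added to these were the 10 furthest above and below all control groups, and 10 near control 24 h with the largest difference between control 72 h and control 24 h. Not all are described. The members and the 39 lists were chosen with earlier results of these data known. Gene positions are from GENCODE M21 for 18513 of 18522 genes, and promoters from RefSeq. The test was checked on simulated data. Alternatives were DESeq2 1.42.0, limma-voom 3.58.1, other scalings, filters and thresholds, a replicate block and leaving out each library. Some genes are not reported here.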

Additional observations from a re-analysis of the deposited data

How the results depend on the processing

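By the ERCC spike-ins, genes lower than in control 24 h numbered 1669, near it 2276 under restriction and 1548 in control 72 h; genes lower than in control 72 h numbered 754 and near it 1965, those below each control 21, and the distances were 1.24 to control 24 h and 0.815 to control 72 h. The log2 differences of Prpsap1 and Shmt2 turned positive at 0.042 and 0.087, without a call. Restricted replicate 2 had the lowest spike-in share, 0.829% beside 1.26% to 1.72% in the other libraries of the 3 groups. Without TMM, 456 genes were above and 700 below each control, and the distance to control 72 h was 0.709. Requiring at least 2-fold left 3365 genes against control 24 h (1929 higher, 1436 lower), 4913 between the controls (2686 and 2227) and 1435 against control 72 h (647 and 788). Within 2-fold, 8183 genes were near control 24 h under restriction, 6680 in control 72 h, and 9124 were near control 72 h; within a ratio of 5 to 4 these were 2112, 1379 and 2311. The distances to control 24 h and 72 h were 1.39 and 0.842 with a prior count of 0.5, and 0.994 and 0.572 over genes of at least 10 CPM.

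Leaving out each library in turn gave 8697 to 8845 genes against control 24 h (4376 to 4465 higher, 4264 to 4380 lower), 6669 to 7051 against control 72 h, 4727 to 4823 near control 24 h, 567 to 740 above and 347 to 435 below each control. Replicate numbers did not pair the samples (correlations of same-numbered deviations between the compared groups of -0.018 to 0.018); with the replicate block 9180 genes differed from control 24 h (4626 higher, 4554 lower) and 303 of 304 named gene values kept their call. DESeq2's Wald test kept 301 of 304 and limma-voom 302. X and Y genes were left out after seeing the data. Where levels were under about 1 CPM, a few counts per library carry the value, and intervals there are wide.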
